A study of Mus musculus with 4 samples.

Results

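The genes described here encode the motors that carry cargo along microtubules in the retina: cytoplasmic dynein, its cofactor dynactin, the dynein regulators Pafah1b1, Nde1, Ndel1 and Bicd2, the kinesin light chains and the kinesins. They were taken by gene symbol alone, as names that begin with Dync, Dctn or Dynl, with Klc and a digit, or with Kif and a digit or a c, plus the 4 regulators. The rule found 72 of the 23336 genes measured, and 68 of them reached a mean of 10 normalized counts over the 4 libraries. A normalized count is the read count of a gene divided by the size factor of its library. The other 4 were Kif12, with a mean of 0.529 normalized counts, and Dynlt1c, Kif2b and Kif4-ps, which had no count in any library.

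RNA-seq compared 2 libraries from Opn4-DTA/DTA mice with 2 libraries from wild-type (WT) littermates, all on a C57/Bl6 background. Opn4-DTA/DTA mice carry the diphtheria toxin A chain at both alleles of Opn4, the melanopsin gene, and the toxin is thus made where the Opn4 promoter is active, in melanopsin ganglion cells. Retinas were taken at postnatal day 8, and the series title names cone positioning as its subject. The labels call the tissue both whole extracts and dissociated cells. Nothing states that the 2 libraries of a genotype are from different animals; p-values then measure only the spread between libraries, which may be technical.

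Library values were recovered as whole counts from the deposited group means, with total counts of 22202382 to 60833968 per library. Library a of each genotype is the one with the larger size factor and library b the one with the smaller, and paired values keep this order. Neither can be tied to a sample label. Opn4 had 1 and 0 counts in the Opn4-DTA/DTA libraries, against 369 and 161 counts in the WT libraries. Markers of rods (7 of 7), cones (7 of 7), bipolar cells (7 of 7), amacrine cells (7 of 7), horizontal cells (4 of 4), Muller glia (6 of 6) and ganglion cells (12 of 12) all passed the filter on low values. In whole tissue, fewer cells of a type and less RNA per cell cannot be told apart.

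Dynein walks toward the minus end of microtubules and needs dynactin and an adaptor to move over long distances. Most kinesins walk toward the plus end, and several serve the mitotic spindle or the cilium instead of cargo. In photoreceptors, nuclei are moved along microtubules and held in place through the LINC complex of the nuclear envelope, and proteins reach the outer segment through the connecting cilium. Motors of both directions thus act in photoreceptors.

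No motor gene passed the test against the spread between libraries. limma called 0 of 68 at an adjusted p under 0.05, where 0.02% of the 15003 genes tested were called, and 2 members, Kif26a and Kif20a, had an unadjusted p under 0.05. Both were higher in Opn4-DTA/DTA. They are 2.94% of the members, beside 1.66% of all genes tested, of which 0.993% were higher and 0.667% lower. The genes called over the whole table were 0.00667% higher and 0.0133% lower. limma with voom weights on the recovered counts and limma without a variance trend also called 0 members, each with 2 at an unadjusted p under 0.05. The number at an unadjusted p under 0.05 fell with an Opn4-DTA/DTA library left out and rose with a WT library left out. In the latter fits far more of all genes were called as well. The share of all genes at an unadjusted p under 0.05 in those fits is not given here, so the rise cannot be read as particular to the motors. The authors' deposited table called none of the members either, and called 0.113% of all genes. With 2 libraries against 2, an exact permutation test of a single gene cannot give a two-sided p below 0.333, so that no such test is reported.

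The measured differences were small and ran both ways. Of 68 members, 38 had a log2 fold change above 0 (Opn4-DTA/DTA over WT, on log2 of the normalized count plus 1) and 30 below, with a median of 0.01, beside a median of -0.000096 and 50% above 0 over all genes tested. The median turned to -0.012, with 31 of 68 above 0, when Opn4-DTA/DTA library a was left out, and 38 to 41 were above 0 when any other library was. The absolute log2 fold change had a median of 0.06 in the members and 0.07 in all genes tested. With scaling by library totals, 47 of 68 were above 0 and the median was 0.04, in a setting where the median of all genes was itself 0.03. The groups did not overlap in 20 members (29.4%), beside 23.5% of all genes tested. They were 14 members higher in Opn4-DTA/DTA, or 20.6% beside a background of 11.2%, and 6 lower, or 8.82% beside 12.3%.

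For most members the data also bound the size of the difference between these libraries. The intervals rest on the spread between 2 libraries of a genotype, which may be technical, and so may not hold for other animals. In 51 of 68 (75%) the 95% interval of the fold change lay within 1.5-fold in either direction, beside 74.4% of all genes tested. The 17 others had means of 16.1 to 596 normalized counts, where the 51 reached from 101 to 28288, and had standard errors of up to 0.45 on the log2 scale. All members of dynein 1 (5 of 5), dynein 2 (2 of 2), dynactin (6 of 6), the dynein regulators (4 of 4) and the kinesin light chains (4 of 4) were among the 51, against 5 of 13 mitotic kinesins.

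**Figure D1:**
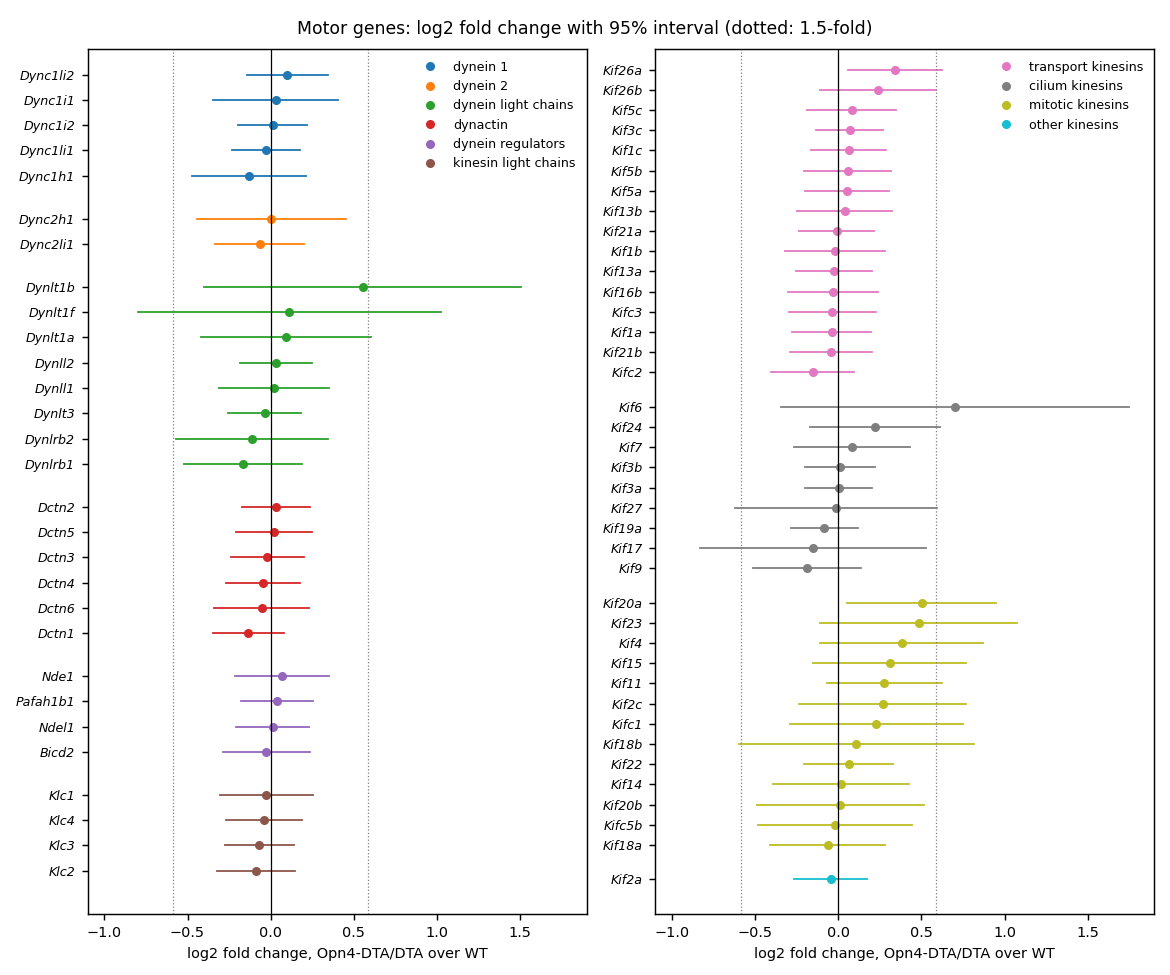
Log2 fold change of each of the 68 motor genes, Opn4-DTA/DTA over WT, as a point with its 95% interval from limma, coloured by role; dotted lines stand at 1.5-fold. Of these intervals, 51 lie between the dotted lines, and 11 of the 13 mitotic kinesin points lie right of 0.

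Dynein 1, the main minus-end motor of the cytoplasm, was measured through its heavy chain, 2 intermediate chains and 2 light intermediate chains. The heavy chain gene Dync1h1, which encodes the motor itself, had 21303 and 16583 normalized counts in Opn4-DTA/DTA retinas, against 18830.1 and 22527 in WT retinas. Each genotype thus held a high and a low library and the groups overlapped (log2 fold change -0.13, SE 0.15, 95% interval -0.47 to 0.21). Dync1li2, a light intermediate chain that links the motor to adaptors, had 8168 and 8611 in Opn4-DTA/DTA, against 7280.5 and 8405 in WT (log2 fold change 0.10, 95% interval -0.14 to 0.34). All 5 dynein 1 members overlapped between genotypes, with a median log2 fold change of 0.01.

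Per kilobase of annotated exon, the intermediate chain gene Dync1i2 stood above its paralogue Dync1i1 in every library. The ratio was 8.93 and 7.89 in Opn4-DTA/DTA, against 7.15 and 10.1 in WT, so that its range was the wider one in WT. Dync1li2 stood below Dync1li1, at 0.780 and 0.854 of its level per kilobase in Opn4-DTA/DTA and 0.690 and 0.808 in WT. The proportions of paralogous chains therefore overlapped between the genotypes.

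Dynein 2 carries cargo back from the tip of the cilium. Its heavy chain gene Dync2h1 had 2344 and 2119 normalized counts in Opn4-DTA/DTA, against 1782 and 2773 in WT. Both Opn4-DTA/DTA values lay between the WT values, and the log2 fold change was 0.0036 (SE 0.19). Dync2li1, the light intermediate chain of this motor, had 1659 and 1752 in Opn4-DTA/DTA, against 1939 and 1644 in WT (log2 fold change -0.07, 95% interval -0.33 to 0.20). Per kilobase, Dync1h1 exceeded Dync2h1 by 9.17-fold and 7.89-fold in Opn4-DTA/DTA and by 10.7-fold and 8.19-fold in WT.

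Dynein light chains bind the intermediate chains, and some bind many other proteins as well. Dynll2 had 12962 and 13473 normalized counts in Opn4-DTA/DTA, against 13317 and 12546 in WT (log2 fold change 0.03, 95% interval -0.18 to 0.25). Its paralogue Dynll1 had 3846 and 4685 in Opn4-DTA/DTA, against 3737 and 4698 in WT (log2 fold change 0.02, 95% interval -0.31 to 0.35). For Dynll1, library b was the higher one in both genotypes, by 1.22-fold in Opn4-DTA/DTA and 1.26-fold in WT. Per kilobase, Dynll2 stood 2.32- to 2.72-fold above Dynll1 in Opn4-DTA/DTA and 2.16- to 2.88-fold above it in WT.

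Dynlrb1, a roadblock light chain, had 3691 and 3996 normalized counts in Opn4-DTA/DTA, against 5059 and 3673 in WT. The single high value was WT library a. Leaving out WT library b, the log2 fold change of Dynlrb1 was -0.40, and leaving out the high library it was 0.06. Pigment epithelium markers moved with the same library: their summed level was 6141 and 4897 in Opn4-DTA/DTA, against 10678 and 4648 in WT, with 8 of 8 markers above the filter and none at 0. Their part in the Dynlrb1 values was not tested.

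The Tctex-type light chain genes Dynlt1a, Dynlt1b and Dynlt1f form a cluster of near-identical copies on chromosome 17. Their reads can match several copies, and how such reads were counted is not given in the sources used here, so that their counts are uncertain. Their annotated coding sequences of 339 bases are identical between Dynlt1a, Dynlt1f and Dynlt1c, and Dynlt1b matches Dynlt1a at 338 of 339 bases. Dynlt1b had the largest ratio of group means of the members, though Kif6 had the larger log2 fold change, at 0.70 against 0.55. Dynlt1b had 153 and 61.4 normalized counts in Opn4-DTA/DTA, against 59.2 and 73.5 in WT. Here 1 library decided the value: the mean was 1.62-fold higher in Opn4-DTA/DTA, but Opn4-DTA/DTA library b lay within the WT range, and without library a the log2 fold change was -0.10. The summed level of lens markers was high in the same library, at 329 and 108 in Opn4-DTA/DTA, against 111 and 110.2 in WT. This sum covers all 5 lens markers, of which 4 passed the filter. Cryba1 was high there, at 69.3 and 23.5 in Opn4-DTA/DTA, against 18.6 and 18.4 in WT. Bfsp1, the most abundant of them, was not, at 66.1 and 70.6 in Opn4-DTA/DTA, against 65.0 and 65.8 in WT. The part of lens markers in the Dynlt1b values was not tested. Dynlt1a had 223 and 203 in Opn4-DTA/DTA, against 244 and 164 in WT, and Dynlt1f had 14.2 and 19.4 in Opn4-DTA/DTA, against 13.9 and 16.8 in WT. In the deposited positions (mm10) Dynlt1f, at chr17:6601671-6655939, spans Dynlt1c.

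Dynactin, the complex of Arp1 filament, shoulder and sidearm that dynein needs for processive movement, was measured through 6 Dctn genes. Dctn1, which encodes the p150 sidearm that binds dynein and microtubules, had 20837 and 20454 normalized counts in Opn4-DTA/DTA, against 22581 and 22731 in WT. Both Opn4-DTA/DTA libraries lay below both WT libraries, and the mean was 0.911 of that in WT. The difference did not pass the threshold (log2 fold change -0.13, SE 0.09, 95% interval -0.35 to 0.08, limma adjusted p = 0.9997). The authors' deposited table gives Dctn1 an unadjusted p-value of 0.0427 and an adjusted p-value of 0.9997.

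Dctn2, the dynamitin subunit of the shoulder, had 8433 and 8155 in Opn4-DTA/DTA, against 8222 and 7995 in WT (log2 fold change 0.03, 95% interval -0.17 to 0.24). Relative to Dctn2 per kilobase, Dctn1 stood at 0.882 and 0.896 in Opn4-DTA/DTA and at 0.981 and 1.02 in WT, which did not overlap. Groups of single genes did not overlap in 23.5% of all genes tested. Like the other ratios per kilobase, this ratio was chosen after its values were seen. Dctn2 overlaps Mbd6 on the opposite strand, which had 4723 and 4580 in Opn4-DTA/DTA, against 5358 and 5205 in WT. If strand was not used in counting, the Dctn2 values and this ratio may hold reads of that gene. The other subunits, Dctn3, Dctn4, Dctn5 and Dctn6, overlapped between genotypes, and over all 6 the median log2 fold change was -0.03 with 2 above 0 (1 to 4 with a library left out, and 3 with scaling by library totals). Dctn2 (chr10:127266262-127281959, plus strand) starts 2899 bases from Kif5a (chr10:127225695-127263363, minus strand), so that these members lie head to head.

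Among the regulators, Pafah1b1 encodes LIS1, which holds dynein on microtubules under load and is needed for nuclear migration. It had 19151 and 18069 normalized counts in Opn4-DTA/DTA, against 17817 and 18403 in WT (log2 fold change 0.04, SE 0.09, 95% interval -0.18 to 0.26). Its partners Nde1 and Ndel1 bring LIS1 to dynein. Nde1 had 565 and 579 in Opn4-DTA/DTA, against 536 and 556 in WT, a difference of 1.05-fold in which the groups did not overlap (log2 fold change 0.07, 95% interval -0.21 to 0.35).

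Ndel1 had 2302 and 2480.3 normalized counts in Opn4-DTA/DTA, against 2382 and 2359.9 in WT, with overlapping groups (log2 fold change 0.01, 95% interval -0.21 to 0.23). Per kilobase Ndel1 stood 3.202- and 3.367-fold above Nde1 in Opn4-DTA/DTA and 3.493- and 3.339-fold above it in WT. Bicd2, a coiled-coil adaptor that joins dynein and dynactin to vesicles and, at the nuclear pore, to nuclei, had 5799 and 5669 in Opn4-DTA/DTA, against 6423 and 5303 in WT (log2 fold change -0.03, 95% interval -0.29 to 0.24). The sign of Bicd2 turned with scaling by library totals, where its log2 fold change was 0.0031.

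Kinesin light chains tie cargo to the kinesin-1 heavy chains. All 4 had log2 fold changes below 0, with a median of -0.05 and none past the threshold, but with scaling by library totals Klc1 turned to 0.0023 and 3 of 4 lay below, and without WT library a 2 of 4 did. Klc1, the main neuronal light chain, had 16898 and 16648 normalized counts in Opn4-DTA/DTA, against 18972 and 15381 in WT, so that the WT libraries enclosed both Opn4-DTA/DTA libraries. Klc3 had 6552 and 6233 in Opn4-DTA/DTA, against 6852 and 6553 in WT. Klc3 was the light chain whose groups did not overlap, by a margin of about 1 normalized count (log2 fold change -0.07, 95% interval -0.28 to 0.14).

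Klc2 had the largest difference of the light chains, at 3801 and 3904 normalized counts in Opn4-DTA/DTA, against 4364 and 3838 in WT (log2 fold change -0.09, SE 0.10). Klc3 is known best from male germ cells, yet its level per kilobase here was second to Klc1 among the light chains in all 4 libraries. Klc1 exceeded Klc3 by 1.71- and 1.77-fold in Opn4-DTA/DTA and by 1.83- and 1.55-fold in WT. Klc3 overlaps Ercc2 on the opposite strand, and whether strand was used in counting is not given in the sources used here, so its level may hold reads of that gene.

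Of the 16 genes listed as transport kinesins, most move vesicles, mitochondria and other cargo. The list also holds Kif26a, which lacks ATPase activity, and its relative Kif26b, and these lay above 0. Of all 16, 8 lay above 0 and 8 below, with a median log2 fold change of 0.01. This count rested on single libraries: 6 or 15 lay above 0 with an Opn4-DTA/DTA library left out (a or b), and 7 or 12 with a WT library left out (a or b). Scaling by library totals put 11 above 0. Kif1b, a carrier of mitochondria and synaptic vesicle precursors, had the most reads of all members, with 29438 and 26619 normalized counts in Opn4-DTA/DTA, against 25439 and 31656 in WT (log2 fold change -0.02, 95% interval -0.32 to 0.28). Kif1a, the carrier of synaptic vesicle precursors in axons, had 23109 and 21443 in Opn4-DTA/DTA, against 21875 and 23964 in WT (log2 fold change -0.04, 95% interval -0.28 to 0.20). In both genes the groups overlapped.

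The kinesin-1 heavy chains Kif5a, Kif5b and Kif5c drive fast axonal transport, and all 3 overlapped between genotypes. Per kilobase Kif5c stood highest, 1.68- and 1.71-fold above Kif5a in Opn4-DTA/DTA and 1.69- and 1.63-fold above it in WT. Kif5a and Kif5b could not be ranked, since their ratio per kilobase ran from 0.937 to 1.06 in Opn4-DTA/DTA and from 0.847 to 1.18 in WT. WT library a held more Kif5a and less Kif5b than WT library b. The summed level of ganglion cell markers, which include the neurofilaments of long axons, differed between the same libraries. It was 74348 and 75574 normalized counts in Opn4-DTA/DTA, against 87924 and 59831 in WT, with 12 of 12 above the filter. Nefl, the most abundant of them, had 21732 and 14129 in WT, but Isl1 ran the other way, at 7092 and 8177. The part of ganglion cell markers in these kinesin values was not tested.

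Kif26a had the lowest p of all members. It encodes an atypical kinesin without ATPase activity that limits growth factor signalling in enteric neurons of the mouse. It had 692 and 643 normalized counts in Opn4-DTA/DTA retinas, against 533 and 519 in WT retinas. Both Opn4-DTA/DTA libraries were higher, by 1.27-fold in the mean (log2 fold change 0.34, SE 0.12, 95% interval 0.06 to 0.63, limma adjusted p = 0.9997). The authors' deposited table gives it an unadjusted p-value of 0.00882 and an adjusted p-value of 0.9997. Its close relative Kif26b was also higher in both Opn4-DTA/DTA libraries, at 353 and 364 against 327 and 282 in WT (log2 fold change 0.24, 95% interval -0.11 to 0.59).

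Kinesins of the cilium were 9 genes with a median log2 fold change of 0.0016. Kif3a, a subunit of the kinesin-2 motor that builds and supplies the photoreceptor cilium, had much the same value in all 4 libraries, at 6039 and 6097 normalized counts in Opn4-DTA/DTA, against 6018 and 6105 in WT (log2 fold change 0.0016, 95% interval -0.20 to 0.20). Its partners Kif3b and Kif3c each stood near a 2-fold lower level per kilobase: the ratio of Kif3a to Kif3b was 2.004 and 2.071 in Opn4-DTA/DTA and 2.103 and 1.998 in WT. That of Kif3a to Kif3c was 1.995 and 2.052 in Opn4-DTA/DTA and 2.093 and 2.144 in WT, which did not overlap. Kif3c overlaps 1110002L01Rik on the opposite strand, so its level may hold reads of that gene if strand was not used in counting.

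Kif19a, a kinesin that shortens ciliary microtubules, had the most reads of this role group, with 7802 and 7777 normalized counts in Opn4-DTA/DTA, against 8332 and 8192 in WT. Both Opn4-DTA/DTA libraries were lower, with a mean of 0.943 of that in WT (log2 fold change -0.08, SE 0.09, 95% interval -0.29 to 0.12). Kif17, a homodimeric kinesin-2 of sensory cilia, had 68.2 and 62.4 in Opn4-DTA/DTA, against 92.8 and 56.6 in WT (log2 fold change -0.15, 95% interval -0.83 to 0.53). Kif6, a kinesin of motile cilia, had few reads, at 24.6 and 29.7 in Opn4-DTA/DTA, against 24.4 and 10.7 in WT. Its log2 fold change of 0.70 (SE 0.45) had the widest interval of the members, from -0.35 to 1.75, and the groups stood apart by less than 1 normalized count.

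**Figure D2:**
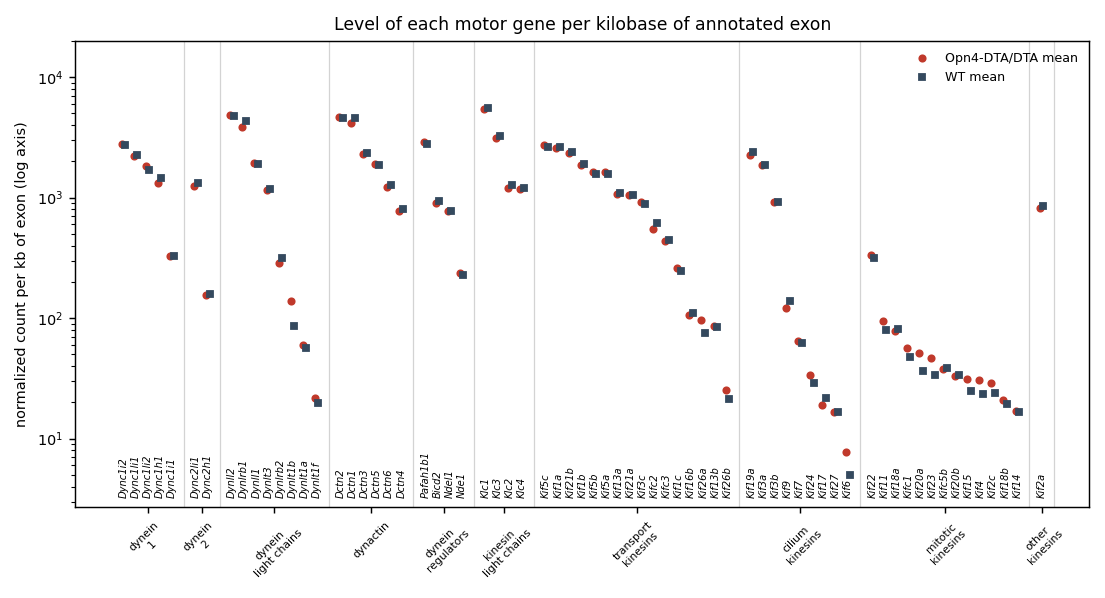
Mean normalized count per kilobase of annotated exon of each motor gene (log axis), by role, for Opn4-DTA/DTA (left point of each pair) and WT (right point), 2 libraries each. Klc1, Dynll2, Dctn2 and Dctn1 stand at the top, and 12 of the 13 mitotic kinesins lie under 100 per kilobase in both genotypes.

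Mitotic kinesins, which build the spindle, move chromosomes or part the daughter cells, were the role group with the largest median. At postnatal day 8 mouse retina holds few dividing cells, and these genes had low levels. Of 13 members 11 lay above 0 and 2 below (12 and 1 with scaling by library totals, where Kifc5b turned), with a median log2 fold change of 0.23 and none past the threshold. The groups did not overlap in 8 of 13, with 7 higher in Opn4-DTA/DTA (53.8%, beside 11.2% of all genes tested) and 1 lower. Without any 1 library, 10 of 13 lay above 0 each time, and the median ran from 0.08 without Opn4-DTA/DTA library a to 0.36 without Opn4-DTA/DTA library b. The summed level was 2868 and 2772 normalized counts in Opn4-DTA/DTA, against 2529.7 and 2507 in WT.

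Kif20a, needed for cytokinesis, had 205 and 206 normalized counts in Opn4-DTA/DTA, against 165 and 127 in WT. It was 1.41-fold higher in the mean (log2 fold change 0.50, SE 0.19, 95% interval 0.05 to 0.95, limma adjusted p = 0.9997), and the authors' deposited table gives an unadjusted p-value of 0.0314. Kif20a overlaps Cdc23 on the opposite strand, which has far more reads, at 4391 and 4734 in Opn4-DTA/DTA, against 4080.0 and 4955 in WT. The libraries were directional, per the labels' protocols, but reads of these genes cannot be told apart if strand was not used in counting.

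Kif23, the motor of the centralspindlin complex at the midbody, had 162 and 153 normalized counts in Opn4-DTA/DTA, against 143 and 88.8 in WT (log2 fold change 0.48, SE 0.25, 95% interval -0.11 to 1.07). WT library b was the low one, and without WT library a the gene passed the threshold in limma (adjusted p = 0.0468, log2 fold change 0.82). Kif11, the kinesin-5 that slides spindle poles apart, had 459 and 458 in Opn4-DTA/DTA, against 343 and 418 in WT (log2 fold change 0.28, SE 0.15, 95% interval -0.07 to 0.62). Kif22, a chromosome-bound kinesin, had the most reads of this role group, with 692 and 708 in Opn4-DTA/DTA, against 674 and 666 in WT (log2 fold change 0.06).

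Kif4, a chromokinesin on chromosome X, had 167 and 137 normalized counts in Opn4-DTA/DTA, against 129 and 104 in WT (log2 fold change 0.38, SE 0.21, 95% interval -0.11 to 0.87). It starts 7572 bases beyond the end of the cone arrestin gene Arr3 on the same strand (mm10, Kif4 at chrX:100626065-100727271). Arr3, one of the 3 genes called in the whole table, had 1402 and 1438 in Opn4-DTA/DTA, against 541 and 441 in WT. Kif4 is named for this position, which was noticed after the values were seen, and its link to the Kif4 values was not tested.

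Kif18a, which damps chromosome movements at metaphase, was the mitotic kinesin with both Opn4-DTA/DTA libraries lower, with 265 and 263 normalized counts in Opn4-DTA/DTA, against 285 and 266 in WT (log2 fold change -0.06, 95% interval -0.41 to 0.28). Kifc1, a minus-end kinesin of the spindle, had 152 and 113 in Opn4-DTA/DTA, against 120 and 104 in WT. Its copy Kifc5b had 100.5 and 99.3 in Opn4-DTA/DTA, against 98.6 and 104 in WT. The annotated coding sequences of Kifc1 and Kifc5b match at 1986 of 2013 aligned bases (98.7%), so that the counts of both are uncertain.

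Kif2c, a kinesin that takes apart microtubules at centromeres, had 98.8 and 87.0 normalized counts in Opn4-DTA/DTA, against 78.9 and 75.0 in WT. The deposited row describes it as a pseudogene at chr5:30092940-30097686, whereas GENCODE M21 places Kif2c on chromosome 4 and another gene symbol, Gm4961, at that position. Gm4961, counted as a gene of its own, had 1.64 and 1.02 in Opn4-DTA/DTA, against 0 and 0 in WT. Which locus the Kif2c reads came from was not tested and is uncertain. Without the 4 members whose reads are uncertain, Kif2c, Kif20a, Kifc1 and Kifc5b, 8 of 9 mitotic kinesins lay above 0, and the median was 0.11; this selection was added after the values were seen.

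**Figure D3:**
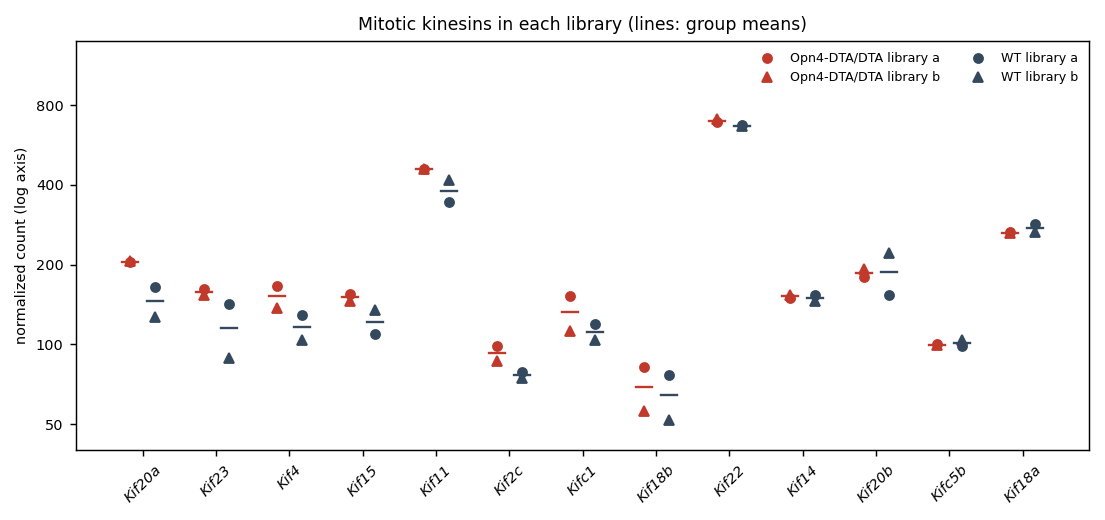
Normalized counts of the 13 mitotic kinesins (log axis) in the 2 Opn4-DTA/DTA libraries (left, red) and the 2 WT libraries (right, dark), with lines at the group means; circles are library a and triangles library b. In 7 genes both Opn4-DTA/DTA libraries lie above both WT libraries, among them Kif20a, Kif23 and Kif4, and in Kif18a both lie below.

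Genes of dividing cells outside the motor list were set beside these values. Of 15 proliferation markers, 14 lay above 0, with a median log2 fold change of 0.44, and 0 passed the threshold in limma, with 8 at an unadjusted p under 0.05. Only 2 had such a p when Opn4-DTA/DTA library a was left out, and the median was then 0.27. Leaving out WT library a, limma called 2 of them, Ccnb1 and Birc5, and leaving out WT library b it called Ccnb1. In 11 of 15 both Opn4-DTA/DTA libraries were higher (73.3%, beside 11.2% of all genes tested). Their summed level was 5012 and 4116 normalized counts in Opn4-DTA/DTA, against 3464 and 3483 in WT, with no marker at 0. The cyclin gene Ccnb1 had the lowest p, at 125 and 98.2 in Opn4-DTA/DTA, against 49.9 and 49.0 in WT (log2 fold change 1.15, SE 0.24, limma adjusted p = 0.9997). Their part in the kinesin values was not tested.

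Promoters of the mitotic kinesins were searched after their values were seen, with 11 of 13 above 0 and 2 below. RefSeq windows of 250 bases before the annotated start (GRCm38.p6) were at hand for 12 of the 13, all but Kif20a. For genes with several starts the first listed was used. The CCAAT box was searched as CCAAT and the cell cycle element CHR as TTTGAA or TTTAAA, on both strands, and no matches overlap in the sequences printed below. CCAAT was present in 8 of 12 mitotic kinesin windows (66.7%), in 16 of 40 windows of the other motor genes (40%) and in 36.0% of the windows of all genes tested. CHR letters were present in 5 of 12 (41.7%), in 6 of 40 (15%) and in 1804 of the 10614 windows of all genes tested. The CCAAT windows include those of Kifc1 and Kifc5b, which are nearly the same. The CHR windows include that of Kif2c, taken from chromosome 4, though the locus of the Kif2c reads is uncertain.

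The 120 bases before the start are printed 5′ to 3′ on the coding strand for 6 of them, with matches to either motif in capitals. Kif11 and Kif22 hold both motifs, Kif23 holds CCAAT alone next to its start, and Kif18a holds neither. Kif20b, above 0 at 0.012 on the log2 scale, also holds neither, and Kifc5b, below 0 at -0.021, holds CCAAT at 2 places. Kifc1 and Kifc5b are shown because their windows, like their coding sequences, are nearly the same, with 201 of 212 aligned bases identical (94.8%).
Kif11 (chr19:37376262-37376381, plus strand): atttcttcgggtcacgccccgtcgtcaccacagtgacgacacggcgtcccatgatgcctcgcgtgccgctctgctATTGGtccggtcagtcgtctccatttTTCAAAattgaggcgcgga
Kif22 (chr7:127042421-127042540, minus strand): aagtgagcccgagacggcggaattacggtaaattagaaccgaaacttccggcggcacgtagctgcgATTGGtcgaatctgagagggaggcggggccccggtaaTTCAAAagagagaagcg
Kif23 (chr9:61946800-61946919, minus strand): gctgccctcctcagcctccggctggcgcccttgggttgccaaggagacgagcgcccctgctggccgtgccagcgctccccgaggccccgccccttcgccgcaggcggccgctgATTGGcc
Kif18a (chr2:109280618-109280737, plus strand): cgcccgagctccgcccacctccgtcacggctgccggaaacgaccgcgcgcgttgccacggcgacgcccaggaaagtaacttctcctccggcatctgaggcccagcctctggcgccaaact
Kifc1 (chr17:33890634-33890753, minus strand): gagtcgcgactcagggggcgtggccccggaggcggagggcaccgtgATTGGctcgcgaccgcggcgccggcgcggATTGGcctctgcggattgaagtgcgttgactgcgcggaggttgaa
Kifc5b (chr17:26916971-26917090, plus strand): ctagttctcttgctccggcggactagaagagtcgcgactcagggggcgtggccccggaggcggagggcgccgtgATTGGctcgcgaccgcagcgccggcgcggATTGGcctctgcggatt
A match describes the letters in the window and is not a measured binding site.

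The last role group held Kif2a, which takes apart microtubules in neurons and other cells, with 4656 and 4842 normalized counts in Opn4-DTA/DTA, against 4683 and 5124 in WT (log2 fold change -0.05, 95% interval -0.26 to 0.17).

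Other genes of microtubule transport, from lists that do not share a gene with the motors, did not pass either. Of 28 adaptors tested 16 lay above 0 and 12 below, with a median log2 fold change of 0.02. The adaptor with the lowest p was Fez1, a kinesin-1 adaptor, at 3271 and 3432 normalized counts in Opn4-DTA/DTA, against 2839.5 and 3018 in WT (log2 fold change 0.19, SE 0.09). Trak2, which links mitochondria to kinesin and dynein, had the highest mean, at 24558 and 24081 in Opn4-DTA/DTA, against 20174 and 25634 in WT, and overlapped. Of 14 tubulins 11 lay above 0 (median 0.06), with Tubb6 lowest in p, at 369 and 411 in Opn4-DTA/DTA, against 356 and 214 in WT (log2 fold change 0.49, SE 0.24). Scaling by library totals put 21 of the adaptors above 0, and without WT library b 4 of the 14 tubulins lay above 0, with a median of -0.07. limma called 0 in each of these lists, with 0 at an unadjusted p under 0.05.

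Of 31 other microtubule-associated proteins 18 lay above 0 (median 0.01), and 1, the doublecortin gene Dcx of migrating neurons, had an unadjusted p under 0.05. Dcx had 6218 and 5777 normalized counts in Opn4-DTA/DTA, against 4572 and 5373 in WT, with higher values in both Opn4-DTA/DTA libraries (log2 fold change 0.27, SE 0.11, limma adjusted p = 0.9997). Of 10 LINC complex and lamina genes 4 lay above 0 (median -0.01). Syne2, the nesprin that anchors photoreceptor nuclei, had 5509 and 4748 in Opn4-DTA/DTA, against 4591 and 6878 in WT (log2 fold change -0.14, SE 0.18), so that the WT libraries enclosed the others. Without WT library a the median log2 fold change of the LINC list was -0.07. Of the LINC list 6 lay above 0 when Opn4-DTA/DTA library b was left out, 8 when WT library b was, and 7 with scaling by library totals. Of the other microtubule-associated proteins 12 of 31 lay above 0 without Opn4-DTA/DTA library a.

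Intraflagellar transport genes encode the trains that cilium kinesins and dynein 2 move, and here include the dynein 2 intermediate chains Wdr60 and Wdr34. Of 23 tested 4 lay above 0 and 19 below, with a median log2 fold change of -0.08. With an Opn4-DTA/DTA library left out (a or b) 7 or 3 lay above 0, with a WT library left out (a or b) 5 or 9 did, and with scaling by library totals 4 did. In 7 of 23 both Opn4-DTA/DTA libraries were lower (30.4%, beside 12.3% of all genes tested), and limma called 0, with 0 at an unadjusted p under 0.05. Hspb11, known as Ift25, had the lowest p, at 460.2 and 454 normalized counts in Opn4-DTA/DTA, against 562 and 513 in WT (log2 fold change -0.23, SE 0.13). Rod markers lay lower in 7 of 7 and cone markers in 6 of 7, with medians of -0.17 and -0.23. Bipolar markers also lay lower in 7 of 7, with a median of -0.25. Both Opn4-DTA/DTA libraries were lower in 3 of 7 rod, 5 of 7 cone and 2 of 7 bipolar markers. Muller glia markers lay lower in 4 of 6 and pigment epithelium markers in 6 of 8. Values of these marker lists with a library left out are not given here. Amacrine markers lay above 0 in 5 of 7, horizontal cell markers in 3 of 4 and ganglion cell markers in 9 of 12. The cone list does not hold the cone arrestin gene Arr3, which was higher in Opn4-DTA/DTA (log2 fold change 1.54). The part of these markers in the ciliary values was not tested.

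The libraries of a genotype differed more in WT than in Opn4-DTA/DTA. Over the 68 members the median absolute log2 difference between library b and library a was 0.08 in Opn4-DTA/DTA and 0.18 in WT, and over all genes tested it was 0.09 in Opn4-DTA/DTA and 0.20 in WT. WT was the wider pair in 47 of 68 members (69.1%), beside 71.2% of all genes. The widest ratios belonged to members with few reads: Dynlt1b in Opn4-DTA/DTA, at 2.50-fold, and Kif6 and Kif17 in WT, at 2.27-fold and 1.64-fold.

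In part these differences followed transcript length. Among the 34 members with the longer annotated exons (3920 to 14983 bases), WT library b was above WT library a in 23, with a median log2 difference of 0.12. Among the 34 with the shorter exons (556 to 3573 bases) it was above in 8, with a median of -0.08. The Opn4-DTA/DTA libraries ran the other way for the long members, where library b was above library a in 11 of 34, with a median of -0.05. Spearman's rho between exon length and the difference of library b minus a over the 68 genes was -0.34 in Opn4-DTA/DTA and 0.31 in WT, beside -0.23 and 0.33 over 13035 tested genes with a length. All points of a genotype share the same 2 libraries, so that these values describe those libraries. Between exon length and the fold change between genotypes, rho was 0.08 over the members. Dync1h1, Dync2h1 and Kif1b have the longest exons of the members, at 14342, 14467 and 14983 bases, and in all 3 Opn4-DTA/DTA library b was below Opn4-DTA/DTA library a and WT library b above WT library a. Kif26b, next in length at 14165 bases, ran the other way in both genotypes, with a log2 difference of 0.04 in Opn4-DTA/DTA and -0.22 in WT.

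**Figure D4:**
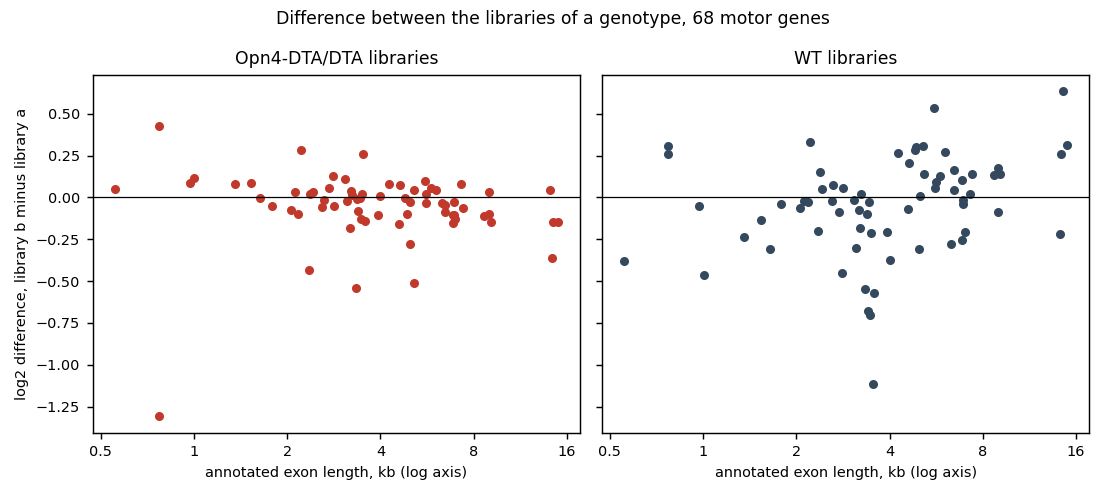
Log2 difference between library b and library a (log2 of the normalized count plus 1) of each of the 68 motor genes against its annotated exon length in kilobases (log axis), for the Opn4-DTA/DTA libraries (left) and the WT libraries (right). The WT points of long genes lie mostly above 0 (23 of 34) and the Opn4-DTA/DTA points of long genes mostly below 0 (23 of 34).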

How the data were processed

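Poly(A) RNA of P8 retinas was sequenced from directional libraries, per the labels' protocols. The submitters' processing notes list FastQC, STAR, HTSeq, DESeq2 and the mm10 build, with no version; the strand setting of the counting is not given in the sources used here. The authors deposited a signal per gene, the mean of size-factor normalized counts over the 2 libraries of each genotype, per the file headers and values. The authors' deposited log2 fold changes are shrunken toward 0, and their test statistic is a score, the fold change over its standard error. The authors' deposited p-values carry an FDR adjustment. Each group mean was solved for the pair of whole counts that gives it within a relative tolerance of 3e-13; all 18327 Opn4-DTA/DTA and 17757 WT means above 0 gave a single pair. The 95% intervals are limma's, from the spread between libraries.

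Log2 of the normalized count plus 1 was tested in limma 3.58.1 (R 4.3.3) with a variance trend, for genes with a mean of at least 10, with Benjamini-Hochberg adjustment over 15003 genes and a threshold of 0.05. The script was tested on simulated data. Exon and coding lengths came from GENCODE M21 basic transcripts (mm10), and promoters from RefSeq. Alternatives were pseudocounts of 0.5 and 5, no filter, a minimum mean of 50, library totals, no trend, voom weights and leaving out each library.

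The members, lists and tests were chosen with earlier results of these data known. Named were members with an unadjusted p under 0.05 or called by the authors, the 2 most abundant and the one with the largest fold change per role group, the regulators, the 3 with the largest ratio between libraries, and per other list the gene with the lowest p or highest mean. Kif23, Kif4, Kif2c, Kif18a, Kifc1, Kifc5b, Kif26b, Dynlrb1, Dynlt1a, Dynlt1f, the Kif5 genes and the ratios per kilobase between members were chosen after their values were seen.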

Additional observations from a re-analysis of the deposited data

How the results depend on the processing

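Leaving out 1 library leaves a lone library in its genotype, which limma then takes to vary like the other genotype. Calls over the whole table rose in such fits, so that calls in the motor and other lists there cannot be read as particular to them. Over all genes, limma called 0 without a trend, beside 3 with it, and 10 to 306 with 1 library left out. The count was 10 or 19 when an Opn4-DTA/DTA library was left out (a or b), and 306 or 237 when a WT library was (a or b). Of the motor genes, 0 to 1 were called: Kif23 without WT library a (log2 fold change 0.14 to 0.82 over the libraries left out) and Dynlrb1 without WT library b (-0.40 to 0.064). With 1 library left out, the calls ran from 0 to 2 among adaptors, tubulins, other microtubule-associated proteins and proliferation markers, and from 0 to 1 in the LINC list. The median log2 fold change of the motors ran from -0.012 to 0.030, that of light chains from -0.049 to 0.070, of dynactin from -0.057 to 0.030, of regulators from 0.020 to 0.033, of kinesin light chains from -0.14 to -0.016, of transport kinesins from -0.048 to 0.050, of cilium kinesins from -0.0087 to 0.046 and of mitotic kinesins from 0.080 to 0.36. Without the 4 uncertain members the mitotic median was 0.11. Scaling by library totals gave a median of 0.040 for the motors and 0.054 for the regulators, and turned the signs of Bicd2 (0.0031), Kif1b (0.0090), Kifc5b (0.0076) and Klc1 (0.0023). Of 36 named genes, 15 kept their sign under every setting run and 17 turned only when a library was left out. Log2 fold changes that turned then ran from -0.16 to 0.11 for Bicd2, -0.31 to 0.049 for Dync1h1, -0.0031 to 0.20 for Dync1li2, -0.32 to 0.32 for Dync2h1, -0.19 to 0.052 for Dync2li1, -0.15 to 0.18 for Dynll1, -0.011 to 0.075 for Dynll2, -0.20 to 0.38 for Dynlt1a, -0.10 to 1.21 for Dynlt1b, -0.10 to 0.33 for Dynlt1f, -0.50 to 0.20 for Kif17, -0.11 to 0.025 for Kif1a, -0.18 to 0.14 for Kif1b, -0.11 to 0.020 for Kif2a, -0.0087 to 0.012 for Kif3a, -0.059 to 0.017 for Kifc5b, -0.18 to 0.13 for Klc1, -0.18 to 0.0052 for Klc2, -0.043 to 0.065 for Ndel1 and -0.0031 to 0.081 for Pafah1b1. For changes made by scaling or the trend the cause was not tested. No paired analysis was possible because the labels number all 4 samples differently, with no number shared between genotypes, and the recovered libraries cannot be tied to samples. Few libraries, more than read depth, limit the abundant members, while 3 counts correspond to 1.64 to 4.59 normalized counts per library.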
